A study of Mus musculus with 24 samples.

Results

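The trunk Hox genes described here are 10 genes of paralogue groups 6 to 10, namely Hoxc6, Hoxa7, Hoxb7, Hoxb8, Hoxc8, Hoxa9, Hoxb9, Hoxc9, Hoxa10 and Hoxd10. They were found by exact symbol in 23 comparisons of P19 cells, in which 1753 genes were listed at least once. They were chosen by their measured values, because each was listed as changed in at least 1 comparison, so their presence and direction are a description and not a test. The mouse has 15 Hox genes of these paralogue groups. Hoxa6, Hoxb6, Hoxc10 and Hoxd8 were not listed in any comparison, and Hoxd9 was listed in 2 and is described beside Hoxd10.

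P19 is a mouse embryonal carcinoma cell line, and RNA was sequenced from 24 samples of it with 1 library each. WT cells received all-trans retinoic acid (ATRA, 1 µM), which binds RARα, RARβ and RARγ, the RARα agonist BMS753 (1 µM), the RARβ agonist BMS641 together with the RARγ agonist BMS961 (0.1 µM each), or ethanol (EtOH), the vehicle, and were collected at days 2, 4 and 10. A further WT library at day 10 came from cells with BMS961 alone. The lines raraKO, rarbKO and rargKO lack RARα, RARβ or RARγ after insertion of a puromycin cassette with CRISPR/Cas9, and were collected at day 10 only. The raraKO line received ATRA, BMS961 or the BMS641+BMS961 combination. The rarbKO line received ATRA, BMS753, BMS961 or the combination, and the rargKO line ATRA, BMS753, BMS641 or the combination. Ligands were present for 4 days, and the cells then spent 6 days in Neurobasal medium with N2 and with B27 free of vitamin A. Whether a mutant line is 1 clone is not stated in the sources used here, and Rara, Rarb and Rarg were in none of the comparisons, so these data give no check of the knockouts.

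Each library was compared by the authors with the WT library of day 2 in ethanol, and each value below is the log2 fold change of that comparison. It is a difference from the ethanol library and not a level, so the order of 2 genes in 1 library is not the order of their expression. An error is given as the standard error (SE) implied by the deposited log2 fold change and p, since no condition has a second library. A gene with a log2 fold change over 2 (4-fold) is called up-regulated. A gene missing from a comparison is called not listed, which means that it did not reach an unadjusted p of 0.01 there, and not that it was silent or unresponsive. All comparisons share the ethanol library, in which the trunk Hox genes may have had few or no reads. The read counts were not used here, so the depth of the libraries is unknown and the size of a fold change against so low a level is uncertain. In these bulk samples, more cells with a transcript and more transcript per cell cannot be told apart.

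Hox genes encode homeodomain transcription factors and lie in 4 clusters, HoxA to HoxD. Genes of the same paralogue number in different clusters descend from 1 ancestral gene. In the embryo, genes with low numbers are switched on early and mark the hindbrain and neck, whereas those in the middle of each cluster come on later and mark the trunk, and those with high numbers mark the tail end. Retinoic acid, acting through its nuclear receptors, is a classical inducer of the low-numbered end of the clusters, and caudal-type factors of the Cdx family, Wnt and FGF signals are known inputs to the trunk genes.

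Trunk Hox genes were up-regulated with ATRA and with the RARα agonist, and were nearly all absent from the lists of the other ligands. Of 230 pairs of a gene and a comparison, 66 held a value, and all 66 were positive, from 4.19 for Hoxb8 in raraKO cells with the combination to 10.62 for Hoxc8 in rarbKO cells with ATRA. The deposited p of these values lay between 5.6e-05 and 0.00878. At day 10, 48 of 70 pairs were up-regulated in the 7 libraries with ATRA or BMS753, against 6 of 90 in the other 9 libraries. Of all 1753 listed genes, 19% to 22.5% were up-regulated in each of the 7 and 7.02% to 16.8% in each of the 9. Hox genes of paralogues 1 to 5, the anterior genes, gave 30 values in the same 7 libraries and 6 in the same 9. Over all comparisons, 14 held at least 1 trunk Hox gene and 9 held none. Beside each count below stands the share of all listed genes that were up-regulated in the same comparison. Nothing is read from the trunk counts against these shares, because the trunk genes were chosen on these comparisons.

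**Figure D1:**
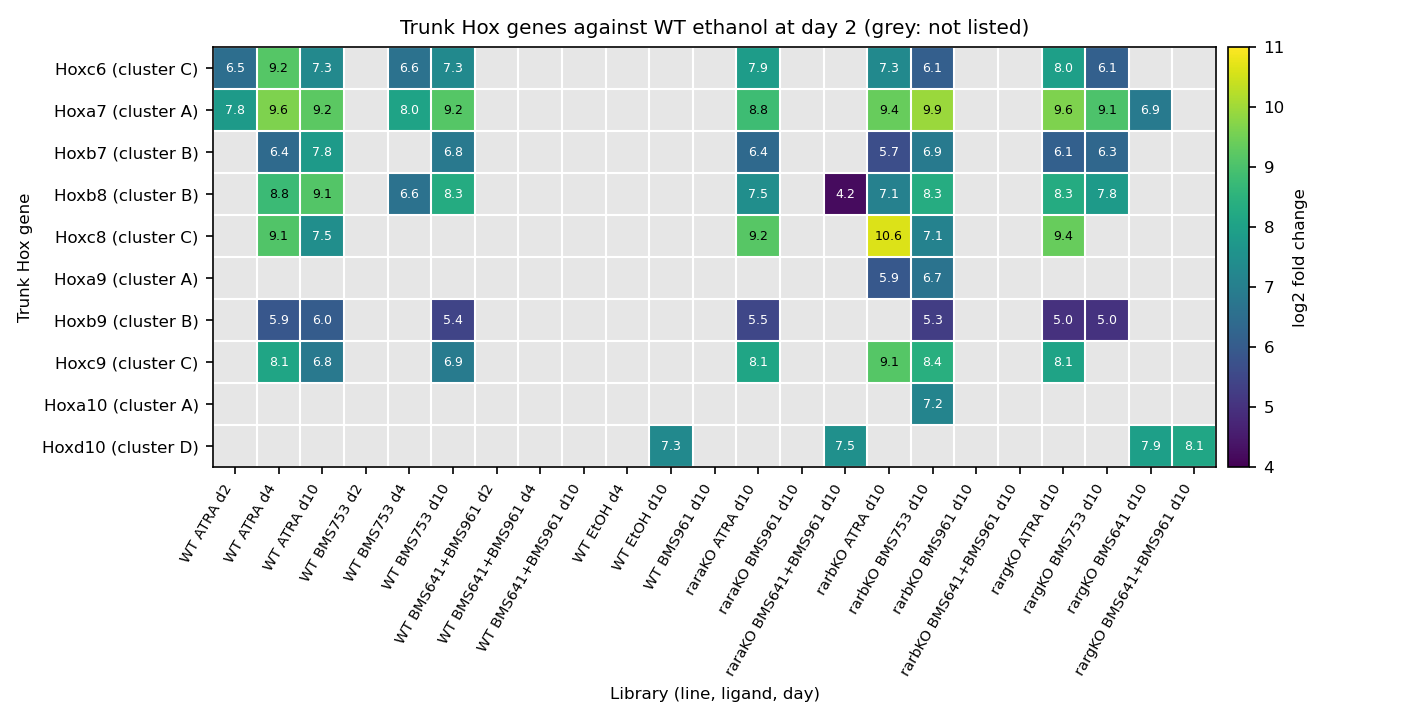
Log2 fold change of the 10 trunk Hox genes (rows) in the 23 libraries (columns) against WT cells in ethanol at day 2, with grey for a gene that was not listed. Values under ATRA and BMS753 run from 4.99 to 10.62, with none in WT cells with BMS753 at day 2, and the other columns hold Hoxd10 in 4 libraries, Hoxa7 (6.89) in 1 and Hoxb8 (4.19) in 1.

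The genes fell into 3 patterns of listing. Hoxc6, Hoxa7, Hoxb7 and Hoxb8 were up-regulated in all 7 day 10 libraries with ATRA or BMS753, Hoxb9 and Hoxc9 in 6 of them and Hoxc8 in 5. Hoxa9 was listed in 2 comparisons and Hoxa10 in 1, all of them in the rarbKO line. Hoxd10 was listed in none of those 7 and in 4 of the other 9 day 10 libraries. By cluster, the 3 HoxA genes gave 14 values, the 3 HoxB genes 25, the 3 HoxC genes 23 and the single HoxD gene 4.

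By paralogue number, the single gene of group 6 gave 10 values, the 2 of group 7 gave 19, the 2 of group 8 gave 16, the 3 of group 9 gave 16 and the 2 of group 10 gave 5. In the day 10 libraries with ATRA or BMS753, the median log2 fold change of listed values was 7.31 for group 6, 8.32 for group 7, 8.31 for group 8 and 6.35 for group 9. Group 10 was represented there by 1 value of 7.15, for Hoxa10. No test compared these medians, and the SE of single values was 2.32 in the median. The anterior genes Hoxa2, Hoxa3, Hoxb3 and Hoxb4 were likewise listed in all 7, and the posterior genes Hoxb13 and Hoxc13 were down-regulated in 5 and 8 comparisons.

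**Figure D2:**
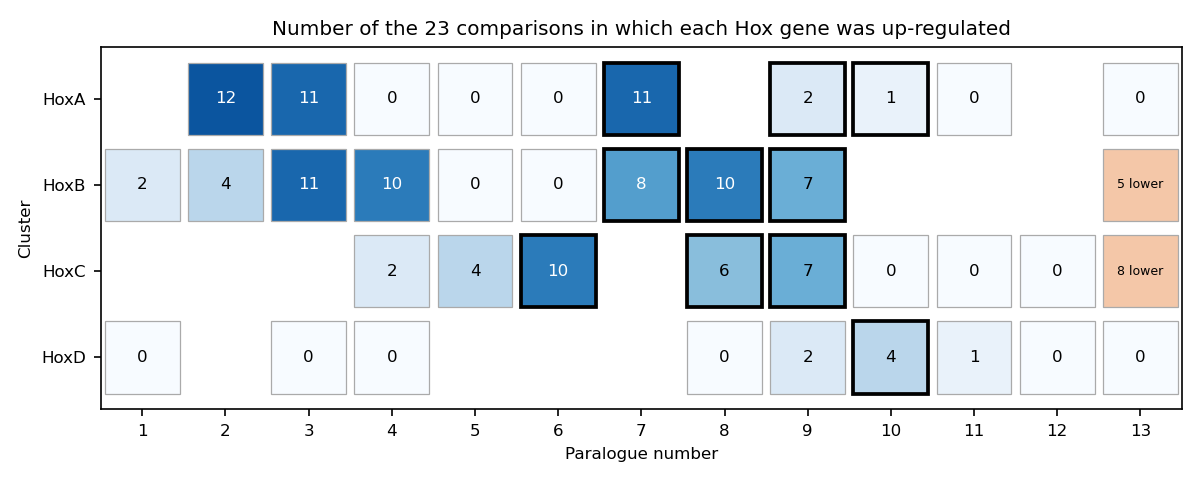
Number of the 23 comparisons in which each mouse Hox gene shown was up-regulated, by cluster (rows) and paralogue number (columns), with a bold frame for the 10 trunk genes described and orange for the 2 genes that were only down-regulated. Trunk genes of HoxA, HoxB and HoxC reach up to 11 comparisons, whereas HoxD is empty up to paralogue 8.

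The listed genes do not stand at the edge of the 4-fold threshold, since the limit on p asked for much larger changes. At the SE of its own listed values, Hoxa7 needed a log2 fold change between 6.47 and 7.49 to pass a p of 0.01, and Hoxc8 between 6.58 and 7.26. For Hoxb9, with the smaller SEs, the same limit lay between 4.45 and 5.08, and for Hoxb8 between 3.98 and 5.88. A trunk Hox gene that was not listed may thus have been far above 4-fold. The values whose deposited p was nearest to the limit were those of Hoxc9 in WT cells at day 10, with 6.82 under ATRA and 6.91 under BMS753.

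In WT cells with ATRA, Hoxc6 and Hoxa7 were the first trunk genes to be listed. At a p limit of 0.001, however, neither passed at day 2. At day 2, when 5.65% of all 1753 listed genes were up-regulated, Hoxc6 stood at 6.52 (SE 2.33) and Hoxa7 at 7.81 (SE 2.91), and the other 8 genes were not listed. Both genes pattern the cervical and thoracic vertebrae. The authors' own SE, which is in the file of this comparison only, is 2.33 for Hoxc6 and 2.91 for Hoxa7, and so equals the implied one. Among the anterior genes, Hoxb2 (5.19) and Hoxb3 (9.09) were listed in the same library.

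At day 4 with ATRA, 7 of 10 trunk genes were up-regulated, beside 10.2% of all listed genes. Hoxa7 was the highest at 9.64 (SE 2.83), followed by Hoxc6 at 9.16 (SE 2.52), Hoxc8 at 9.09 (SE 2.82), Hoxb8 at 8.77 (SE 2.28) and Hoxc9 at 8.11 (SE 2.84). Hoxb7 (6.43, SE 2.00) and Hoxb9 (5.90, SE 1.89) were lower. The SEs of neighbours in this order overlap throughout. Hoxc6 was 2.64 higher than at day 2, which is more than the larger of its SEs (2.52), and Hoxa7 was 1.83 higher, which is less than its SE. In the same library 7 anterior genes were up-regulated, including Hoxb4 at 9.81 and Hoxc5 at 8.46.

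At day 10 with ATRA, after 6 days without ligand, the same 7 trunk genes were up-regulated, beside 22.5% of all listed genes. Hoxa7 stood at 9.23 (SE 2.67), Hoxb8 at 9.13 (SE 2.26), Hoxb7 at 7.82 (SE 2.15) and Hoxc8 at 7.46 (SE 2.60). Hoxc6 had 7.29 (SE 2.32), Hoxc9 had 6.82 (SE 2.60) and Hoxb9 had 6.04 (SE 1.97). The 3 HoxC genes were lower at day 10 than at day 4, with differences of -1.88 for Hoxc6, -1.63 for Hoxc8 and -1.3 for Hoxc9. The 3 HoxB genes were higher, by 1.39 for Hoxb7, 0.35 for Hoxb8 and 0.13 for Hoxb9. Each of these steps was smaller than the larger SE of the gene, and with 1 library a day none has a replicate check. The mutant lines are set against the same WT library of day 10 below, so those differences are not independent of these steps. All 4 anterior genes listed on both days were lower at day 10, with a median difference of -1.77, while the median over all 123 genes up-regulated on both days was -0.26.

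With the RARα agonist BMS753 the trunk genes were listed later than with ATRA. None of the 10 was listed at day 2, when 6.39% of all listed genes were up-regulated and Hoxb2 was the only Hox gene present. At day 4, with 8.33% of all listed genes up-regulated, Hoxa7 stood at 8.05 (SE 2.83), Hoxb8 at 6.65 (SE 2.05) and Hoxc6 at 6.64 (SE 2.34). Hoxb7, Hoxc8, Hoxb9 and Hoxc9, all listed with ATRA on that day, were not listed. The same library held 9 anterior genes, against 7 with ATRA, and included Hoxb1 (9.01), which no ATRA library held. At a p limit of 0.001, the count of trunk genes at day 4 was 3 with ATRA and 0 with BMS753. The share of all listed genes at that limit is not given, so nothing particular to the trunk genes is read from these counts.

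For the 3 trunk genes listed at day 4 with both ligands, ATRA gave the higher value each time. The difference was 2.53 for Hoxc6, 2.12 for Hoxb8 and 1.59 for Hoxa7, against a median of 0.22 over the 94 genes up-regulated by both ligands. The 7 anterior genes listed with both differed by 0.14 in the median. Of the 3 trunk genes, Hoxc6 alone differed by more than its larger SE, which was 2.52.

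By day 10 the 6 trunk genes listed with both ligands in WT cells differed between them by less than 1 SE. BMS753 had 6 genes up-regulated, beside 21.8% of all listed genes, and lacked Hoxc8, which stood at 7.46 with ATRA. With BMS753, Hoxa7 reached 9.15 (SE 2.61), Hoxb8 8.32 (SE 2.13) and Hoxc6 7.31 (SE 2.26). The other 3 were Hoxc9 at 6.91 (SE 2.59), Hoxb7 at 6.84 (SE 1.99) and Hoxb9 at 5.44 (SE 1.84). ATRA minus BMS753 ranged from -0.09 for Hoxc9 to 0.98 for Hoxb7 with a median of 0.33, against 0.21 over the 300 genes up-regulated by both. All 3 trunk genes present at day 4 with BMS753 were higher at day 10, by 1.67 for Hoxb8, 1.11 for Hoxa7 and 0.67 for Hoxc6. The 4 anterior genes present on both days had a median difference of -1.13, with Hoxb4 going from 9.48 to 8.09 and Hoxa3 from 8.98 to 6.82.

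**Figure D3:**
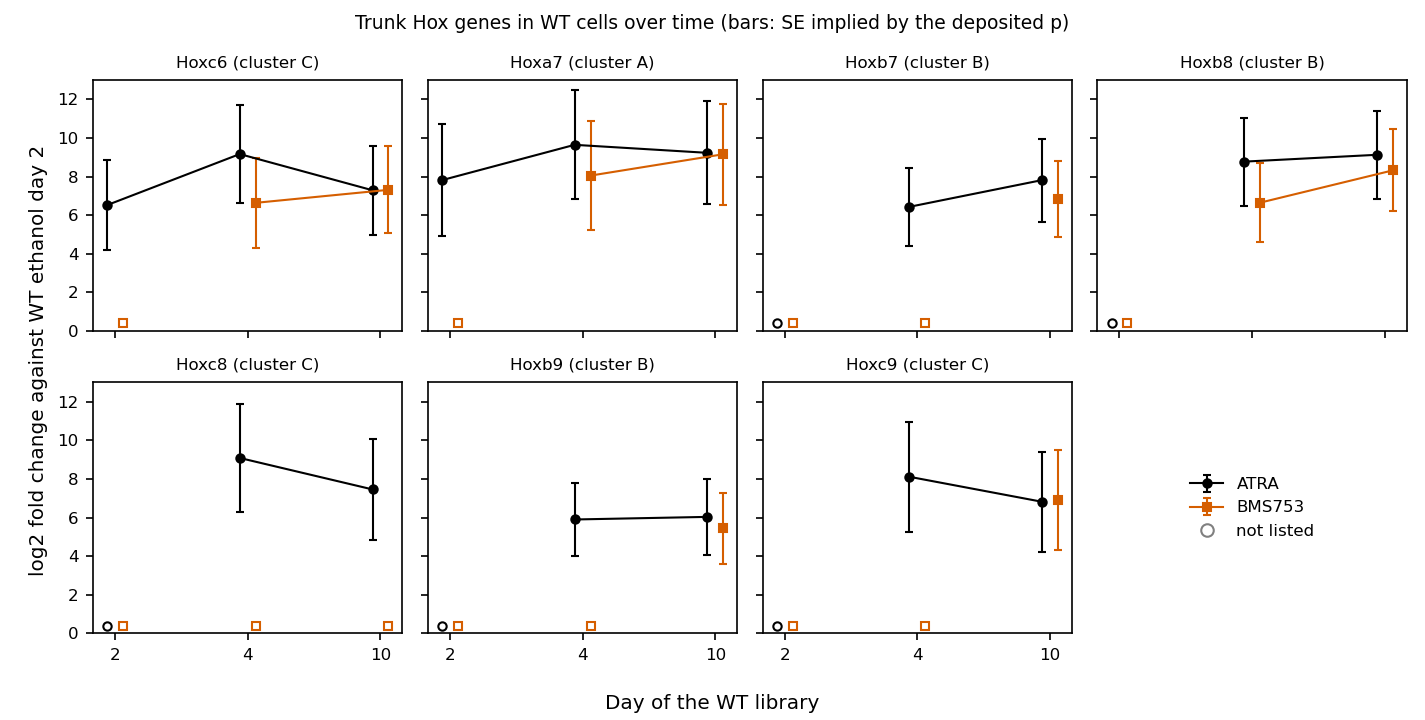
Log2 fold change of the 7 trunk Hox genes listed in WT cells with ATRA (black circles) or BMS753 (orange squares) at days 2, 4 and 10 (axis not to scale), with bars for the implied SE and open symbols near the axis for a gene that was not listed, which carry no value. Hoxc6 and Hoxa7 are listed with ATRA from day 2, and BMS753 has 3 genes at day 4.

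The agonists of RARβ and RARγ gave no trunk Hox listing in WT cells. With the BMS641+BMS961 combination the count was 0 of 10 at day 2, 0 at day 4 and 0 at day 10, beside 3.71%, 2.22% and 9.87% of all listed genes. BMS961 alone at day 10 also gave 0, beside 8.16%. Ethanol gave 0 at day 4, beside 1.65%. The anterior genes Hoxb1 and Hoxa2 were up-regulated with the combination at day 4, with 7.45 and 5.07, and neither was listed with it at day 10. No test stands behind these counts of 0, since each rests on the authors' DESeq2 comparison of 1 library with 1 other.

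In raraKO cells, ATRA up-regulated the same 7 trunk genes as in WT cells, beside 19% of all listed genes. Hoxc8 was the highest at 9.19 (SE 2.56), followed by Hoxa7 at 8.82 (SE 2.55), Hoxc9 at 8.11 (SE 2.53) and Hoxc6 at 7.86 (SE 2.23). The 3 HoxB genes were lower, with Hoxb8 at 7.47 (SE 1.99), Hoxb7 at 6.38 (SE 1.88) and Hoxb9 at 5.49 (SE 1.77). The other ligands gave a different picture in this line. BMS961 alone gave no trunk gene, beside 10.9% of all listed genes, though Hoxa2 (6.47) and Hoxa3 (6.59) were up-regulated. The combination up-regulated Hoxb8 at 4.19 (SE 1.54) and Hoxd10 at 7.51 (SE 2.47), beside 16.8% of all listed genes, and the 4 anterior genes Hoxa2 (7.40), Hoxa3 (7.36), Hoxb3 (7.48) and Hoxb4 (6.71). Hoxb8 was thus the only trunk gene of HoxA, HoxB or HoxC listed with the combination in any line.

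In the rarbKO line 9 of the 10 trunk Hox genes were listed over its libraries. ATRA up-regulated 7 genes, beside 20.5% of all listed genes, with Hoxc8 at 10.62 (SE 2.72), Hoxa7 at 9.36 (SE 2.65) and Hoxc9 at 9.15 (SE 2.64). Hoxc6 stood at 7.32 (SE 2.29), Hoxb8 at 7.08 (SE 2.07), Hoxa9 at 5.93 (SE 2.20) and Hoxb7 at 5.68 (SE 1.93), while Hoxb9 was not listed. Hoxa9 and Hoxa10 are genes of the thoracic to lumbar level, and Hoxa9 also acts in blood progenitors. BMS753 up-regulated 9 of 10, beside 22.3% of all listed genes. This count was the highest of any library at the authors' p limit only, since at a limit of 0.001 it was 3, as in WT cells with BMS753, against 5 in raraKO cells with ATRA. No share of all listed genes is given at 0.001. Hoxa7 reached 9.94 (SE 2.64), Hoxc9 8.40 (SE 2.57), Hoxb8 8.34 (SE 2.13) and Hoxa10 7.15 (SE 2.55). Hoxc8 stood at 7.11 (SE 2.55), Hoxb7 at 6.86 (SE 1.99), Hoxa9 at 6.66 (SE 2.20), Hoxc6 at 6.11 (SE 2.17) and Hoxb9 at 5.28 (SE 1.81). Hoxa9 and Hoxa10 were listed in no other line, and whether they differ between lines was not tested, because a gene that is not listed has no value. BMS961 alone and the combination gave 0 trunk genes, beside 7.02% and 8.27% of all listed genes.

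In rargKO cells, ATRA again up-regulated the 7 genes seen in WT cells, beside 21.4% of all listed genes. Hoxa7 stood at 9.64 (SE 2.67), Hoxc8 at 9.37 (SE 2.65), Hoxb8 at 8.30 (SE 2.17) and Hoxc9 at 8.06 (SE 2.60). Hoxc6 had 7.96 (SE 2.34), Hoxb7 had 6.15 (SE 1.97) and Hoxb9 had 4.99 (SE 1.83). BMS753 up-regulated 5 genes, beside 19.9%, and both Hoxc8 and Hoxc9 were not listed. Its values were 9.05 (SE 2.56) for Hoxa7, 7.81 (SE 2.03) for Hoxb8, 6.34 (SE 1.89) for Hoxb7, 6.14 (SE 2.14) for Hoxc6 and 5.02 (SE 1.73) for Hoxb9. BMS641 alone up-regulated Hoxa7 at 6.89 (SE 2.51) and Hoxd10 at 7.94 (SE 2.38), beside 8.5% of all listed genes. The combination up-regulated Hoxd10 only, beside 8.61%.

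**Figure D4:**
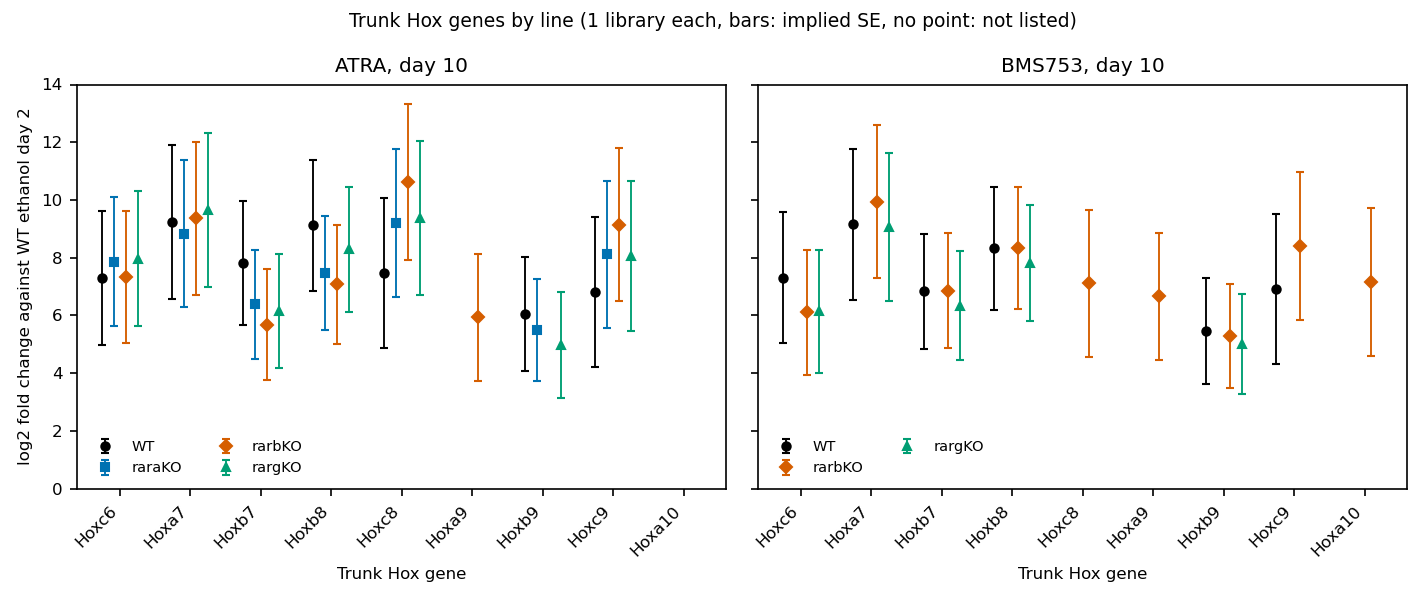
Log2 fold change of 9 trunk Hox genes (all but Hoxd10) at day 10 with ATRA (left, 4 lines) or BMS753 (right, 3 lines), with 1 library a point and bars for the implied SE. The bars of the lines overlap for every gene with points in more than 1 line of a panel, and Hoxa9 and Hoxa10 have points in rarbKO cells only.

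Under ATRA the trunk genes of HoxC and of HoxB lay on opposite sides of their WT values in the mutant lines. The 3 HoxC trunk genes were higher than in WT cells in each mutant line, with a median difference of 1.29 in raraKO, 2.33 in rarbKO and 1.24 in rargKO cells. The HoxB trunk genes listed in both were lower in each, with a median of -1.43 for 3 genes in raraKO, -2.09 for 2 genes in rarbKO and -1.05 for 3 genes in rargKO cells. Hoxc8, for example, stood at 7.46 in WT cells and at 9.19, 10.62 and 9.37 in raraKO, rarbKO and rargKO cells, and Hoxb7 at 7.82 against 6.38, 5.68 and 6.15. The smallest of the HoxC differences was that of Hoxc6 in rarbKO cells, at 0.03. A gene had to be listed in both libraries to be compared. At the smallest SE of its listed values, Hoxc9 needed 6.52 to be listed and Hoxc8 6.58, near their WT values of 6.82 and 7.46. A much lower value of either in a mutant line would thus not have been listed, so their direction was partly set by the listing. For Hoxb7 the same limit was 4.85, well below its WT value. The anterior HoxB genes Hoxb3 and Hoxb4 were higher than in WT cells in all 3 mutant lines, unlike the HoxB trunk genes. Hoxb3 differed by 2.21, 1.68 and 2.71 in raraKO, rarbKO and rargKO cells, the last above its larger SE of 2.65, and Hoxb4 by 1.35, 0.58 and 0.20. The WT value of Hoxb3, 6.72, was itself at the p limit of 0.01, so a clearly lower mutant value would not have been listed. Its direction therefore says nothing about the split. Hoxb4 stood at 7.07 in WT cells and needed 5.16 at its smallest SE. All 3 mutant comparisons use the same WT library, so they are not independent, and since no mutant library in ethanol was used here, a difference between lines and one in the response to ATRA cannot be told apart. Of the 20 differences of trunk genes, Hoxc8 in rarbKO cells alone (3.16) exceeded the larger SE of its gene (2.72).

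Markers of other cell types differed between the same libraries. Every mesenchyme and mesoderm marker listed in both was higher in the mutant line than in WT cells, with a median difference of 1.17 over 8 markers in raraKO, 1.81 over 7 in rarbKO and 1.55 over 8 in rargKO cells. Some of these directions were partly set by the listing. Meox1 (6.78) and Tbx18 (6.80) in WT cells were near the p limit of 0.01, so clearly lower mutant values would not have been listed. Col1a1, a fibrillar collagen gene, stood at 5.20 in WT cells and at 7.35, 9.19 and 7.11 in the 3 lines. Every neuronal marker listed in both was lower, with a median of -2.71 over 4 markers, -1.56 over 3 and -1.17 over 8. Of the 14 neuronal markers, 9 were up-regulated in WT cells and 4, 3 and 8 in the mutant lines. Gad1, which makes GABA, stood at 9.59 in WT cells, 5.48 in raraKO and 7.59 in rargKO cells. It was not listed in rarbKO cells with ATRA. Pdgfra, fixed here as a marker of oligodendrocyte precursors and also expressed in mesenchyme, stood at 9.04 in WT cells and 11.13, 13.09 and 11.17 in the lines. Gata6, 1 of 6 endoderm markers, was not listed in WT cells with ATRA at day 10. It stood at 7.46, 8.07 and 8.86 in raraKO, rarbKO and rargKO cells. In WT cells with ATRA it was up-regulated at day 2 (6.62) and day 4 (6.29). The part of these cell types in the HoxC and HoxB differences was not tested.

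The directions of the HoxC and HoxB differences are relative to the general shift of each library. Over the genes up-regulated in both libraries, the median difference from WT was -0.23 in raraKO, 0.42 in rarbKO and -0.30 in rargKO cells. After centring on that shift, 3 of 3 HoxC trunk genes stayed higher in raraKO and in rargKO cells. In rarbKO cells, Hoxc6 turned to -0.38 and the other 2 stayed higher. The HoxB trunk genes stayed lower in the 3 lines, and Hoxb3 and Hoxb4 stayed higher. Hoxa7, the only HoxA trunk gene listed in all, differed by -0.41, 0.14 and 0.42 as deposited, and by -0.17, -0.28 and 0.72 after centring.

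**Figure D5:**
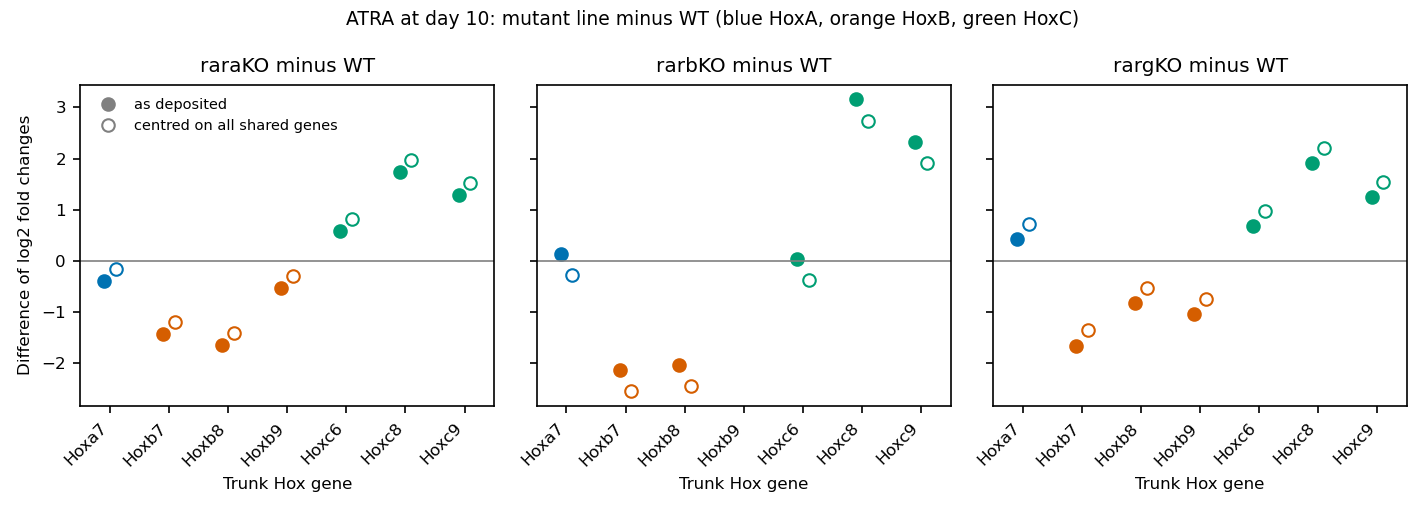
Difference of log2 fold changes between each mutant line and WT cells with ATRA at day 10 for 7 trunk Hox genes, as deposited (filled) and centred on the median of all genes up-regulated in both libraries (open). HoxC genes (green) lie up to 3.16 above 0 and HoxB genes (orange) down to -2.14 as deposited, open symbols of Hoxc6 in rarbKO cells fall below 0, and Hoxb9 was not listed in rarbKO cells.

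With BMS753 the genes listed in both libraries did not show the same split by cluster, but few HoxC genes could be compared. Hoxc8 was not listed in WT cells, which leaves Hoxc6 and Hoxc9 in rarbKO cells. In rargKO cells Hoxc9 was not listed either, which leaves Hoxc6 alone. In rarbKO cells Hoxc9 was 1.49 higher than in WT cells, Hoxa7 0.79 higher and Hoxc6 1.20 lower, and the 3 HoxB genes differed by -0.16 to 0.02. In rargKO cells all 5 genes listed in both libraries were lower than in WT cells, with differences from -1.17 for Hoxc6 to -0.10 for Hoxa7 and a median of -0.50. The median over the 277 genes up-regulated in both was -0.45, so after centring 2 of the 5 were higher. No BMS753 difference exceeded the larger SE. The 2 ligands can also be set side by side within the mutant lines. ATRA minus BMS753 was 3.51 for Hoxc8 in rarbKO cells, above its larger SE of 2.72, while the median of the 7 genes listed in both was -0.58. The median over the 166 genes up-regulated in both was 0.44, and after centring on it that of the 7 was -1.02. In rargKO cells the 5 differences ran from -0.19 for Hoxb7 to 1.82 for Hoxc6, all under 1 SE. Their median of 0.48 was 0.02 after centring.

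Hoxd10, a HoxD gene known for its role in lumbar motor neurons and the hindlimb, had the opposite pattern to the other 9. It stood at 7.31 (SE 2.57) in WT cells with ethanol at day 10, where it was the only trunk Hox gene beside 9.53% of all listed genes. It was at 7.51 (SE 2.47) in raraKO cells with the combination, 7.94 (SE 2.38) in rargKO cells with BMS641 and 8.14 (SE 2.37) in rargKO cells with the combination. In the last of these it ranked 13 of 151 up-regulated genes. The 4 values lay within 1 SE of each other. Day 2 and day 4 libraries, and all libraries with ATRA or BMS753, lacked it. In these 4 libraries its SEs set a log2 fold change of 6.10 to 6.63 as the least that could be listed. Its SE in the other libraries is not known, so the value that its absence there allows is not known either. Its HoxD neighbours Hoxd9 (4.62 with BMS641, SE 1.38, and 4.70 with the combination, SE 1.39) and Hoxd11 (4.22 with the combination, SE 1.63) were listed in rargKO cells only.

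Of 4 smooth muscle markers, Acta2 and Tagln were up-regulated in WT cells with ethanol at day 10 and in rargKO cells with BMS641 and with the combination, and Tagln in raraKO cells with the combination, the 4 libraries that listed Hoxd10. Tagln was also up-regulated at day 10 in WT cells with the combination or BMS961 and in raraKO cells with BMS961, where Hoxd10 was not listed. None of the 14 neuronal markers was up-regulated in the ethanol library and in both rargKO libraries, and 5 were in raraKO cells with the combination. The part of such cells in the Hoxd10 values was not tested.

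Markers of other cell types also moved with the remaining trunk genes. Of 10 markers of mesenchyme and mesoderm, 6 to 9 were up-regulated in the 7 day 10 libraries with ATRA or BMS753, including Col1a1, Twist1 and Osr1 in WT cells, against 0 to 6 in the other 9. Of 14 neuronal markers, 3 to 10 were up-regulated in the 7 libraries and 0 to 5 in the 9. The raraKO library with the combination, the one with Hoxb8 at 4.19, had 6 mesenchymal and 5 neuronal markers up-regulated. Of 10 pluripotency markers, Pou5f1, Nanog, Tdgf1, Utf1 and Fgf4 were down-regulated with ATRA in the WT library of day 10. No marker level per library was available, and the part of each cell type in the Hox values was not tested.

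The positions are those of the mm9 annotation (GENCODE vM1). The HoxA genes lie on the minus strand of chromosome 6, with Hoxa7 at 52164490 to 52171853, Hoxa9 at 52173099 to 52181088 and Hoxa10 at 52181196 to 52190853. The HoxB genes lie on the plus strand of chromosome 11, with Hoxb9 at 96132771 to 96137909, Hoxb8 at 96143219 to 96146639 and Hoxb7 at 96145571 to 96151650. The HoxC genes lie on the plus strand of chromosome 15, with Hoxc9 at 102806870 to 102815530, Hoxc8 at 102821053 to 102824698 and Hoxc6 at 102828688 to 102842312. Hoxd10 lies on the plus strand of chromosome 2 at 74529147 to 74533163. Hoxb7 and Hoxb8 share 1069 exonic bases in this annotation, which is 26.2% of Hoxb7 and 40.4% of Hoxb8, and Hoxa7 shares 586 bases (20.4%) with the transcript 2700086A05Rik. The library kit does not mark strand and the annotation used for counting is not given, so reads in these bases cannot be assigned with certainty.

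RefSeq promoter windows of 300 bases, from 250 before to 50 after the start of a gene, were matched by symbol for 5 of the 10 genes, namely Hoxa7, Hoxa9, Hoxa10, Hoxb8 and Hoxd10. Hoxc6, Hoxb7, Hoxc8, Hoxb9 and Hoxc9 had no match. Those of Hoxa7 and Hoxb8 are shown because these genes, with 11 and 10 listings, were among the most widely listed, and that of Hoxd10 because its pattern was the opposite. Each is given from 5′ to 3′ on the strand of the gene in build GRCm38.p6, and capitals mark TTTATG, the core bound by caudal-type factors, or AGGTCA, the half-site of nuclear receptors, on either strand. Hoxa7 is at chr6:52218524-52218823 on the minus strand, Hoxb8 at chr11:96281655-96281954 on the plus strand and Hoxd10 at chr2:74691641-74691940 on the plus strand.
Hoxa7: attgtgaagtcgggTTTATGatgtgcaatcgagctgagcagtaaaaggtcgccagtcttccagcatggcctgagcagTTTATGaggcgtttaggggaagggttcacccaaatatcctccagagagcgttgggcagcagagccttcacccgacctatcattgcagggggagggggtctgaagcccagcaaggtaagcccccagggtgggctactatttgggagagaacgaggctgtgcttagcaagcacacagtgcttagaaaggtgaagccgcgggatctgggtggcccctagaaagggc
Hoxb8: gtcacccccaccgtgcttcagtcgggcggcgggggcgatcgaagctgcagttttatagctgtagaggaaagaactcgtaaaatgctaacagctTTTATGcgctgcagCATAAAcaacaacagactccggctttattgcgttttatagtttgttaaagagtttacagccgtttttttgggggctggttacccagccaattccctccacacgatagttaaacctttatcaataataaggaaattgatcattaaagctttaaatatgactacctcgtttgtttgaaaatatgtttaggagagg
Hoxd10: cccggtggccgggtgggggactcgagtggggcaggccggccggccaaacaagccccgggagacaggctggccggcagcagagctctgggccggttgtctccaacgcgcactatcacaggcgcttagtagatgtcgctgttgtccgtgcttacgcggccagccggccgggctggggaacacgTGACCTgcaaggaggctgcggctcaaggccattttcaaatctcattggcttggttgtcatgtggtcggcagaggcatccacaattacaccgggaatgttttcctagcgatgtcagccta

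The windows of Hoxa7 and Hoxb8 each held 2 matches to TTTATG, and those of Hoxa9, Hoxa10 and Hoxd10 none. On both strands, 11.9% of all 32851 windows of this length held at least 1. The window of Hoxd10 held 1 match to AGGTCA, as did 16.3% of all windows, and the other windows held none. No trunk window held 2 half-sites of this kind (A or G allowed at the first base, G or T at the third) in direct repeat with 5 bases (DR5) or 2 bases (DR2) between them, which 0.0974% and 0.268% of all windows held. TATAAA stood in 2 of the 6 trunk windows and in 13.6% of all, CCAAT in 3 and in 37.4%, GGGCGG in 3 and in 35.7%, and TGATTNAT in none and in 3.22%. The 6 windows held 22 CpG for Hoxd10, 21 and 12 for the 2 windows of Hoxa10, 13 for Hoxb8, 9 for Hoxa7 and 4 for Hoxa9, against a median of 7 over all windows. These 8 motifs were chosen with the results in view, TATAAA on the other strand reads TTTATA and so differs from TTTATG in 1 base, AGGTCA is also a half-site of the DR5 and DR2 repeats, and a match or its absence in so short a window says nothing of binding.

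The known inputs and partners of trunk Hox genes were read from lists of whole families. Of 9 Hox cofactors of the Pbx, Meis and Pknox families, Meis1 and Meis2 were up-regulated and the other 7 were not listed in any comparison. In WT cells Meis1 stood at 8.53 with ATRA and 9.15 with BMS753 at day 10, and Meis2 at 4.98 and 5.28. Both were also up-regulated in WT cells with the combination at day 10, where no Hox gene was listed. Of 13 caudal and axial genes, Cdx1 (6.43) was up-regulated with ATRA at day 2, the library in which Hoxc6 and Hoxa7 appeared. With BMS753 at day 4, when Hoxc6, Hoxa7 and Hoxb8 appeared, Cdx1 (6.13), Cdx2 (7.51) and Wnt3a (8.07) were up-regulated. With ATRA at day 4, when Hoxb7, Hoxb8, Hoxc8, Hoxb9 and Hoxc9 were first listed with that ligand, Sp5 (9.31) was the only one of the 13 up-regulated. Members of the list were also up-regulated where no trunk gene was listed, such as Fgf8 (4.15) in WT cells with BMS753 at day 2. At day 10 neither Cdx gene was listed. Wnt3a was then up-regulated in WT, rarbKO and rargKO cells with BMS753 (6.57, 6.19 and 6.40) and in raraKO cells with the combination (5.50), but in no library with ATRA. Sp5 was up-regulated in WT cells in ethanol too (8.43), and Tbx6 was down-regulated in raraKO cells with BMS961 (-5.20) and with the combination (-4.29).

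Of 19 genes of retinoid metabolism and reception, Aldh1a2, which makes retinoic acid, stood at 5.75 with ATRA and 5.71 with BMS753 in WT cells at day 10, and Crabp1, which binds it in the cytoplasm, at 5.21 and 4.88. Dhrs3, a retinaldehyde reductase, was down-regulated with BMS753 in the same cells (-8.24). Of 16 genes of spinal cord and hindbrain identity, Lhx1 (6.55) and Lhx5 (10.89) were up-regulated with ATRA at day 10, and Lhx5 (9.36) with BMS753. The motor neuron genes Isl1, Mnx1 and Lhx3 were in no comparison. Of 13 genes of fore- and midbrain identity, Dlx5 (6.83) and Pax2 (6.97) were up-regulated and Otx2 (-4.73) down-regulated with ATRA at day 10 in WT cells, and Pax2 (5.43) was up-regulated with BMS753. None of 11 Polycomb and trithorax genes, the chromatin regulators that hold Hox clusters silent or active, was listed in any comparison.

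For each trunk gene up-regulated in 5 or more comparisons, the genes outside the Hox family with the most similar set of comparisons were found by the Jaccard index, the number of shared comparisons over the number in either. Prdm6 was up-regulated in the same 10 comparisons as Hoxc6 (index 1) and differed from it by 1.28 in the mean. It was also first for Hoxa7, with 10 of 11 shared and an index of 0.909. Twist1 and Tbx2 shared all 10 comparisons with Hoxb8, Lhx5 all 7 with Hoxb9 and Igf1 all 7 with Hoxc9. Hoxb7 shared its 8 with Mira, a noncoding gene next to Hoxa7, and with Igfbp4, and Hoxc8 was nearest to Igf1, at 0.857. All of these are likenesses over 23 comparisons that share 1 reference, and nothing is read from them about shared control.

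Several noncoding genes of the HoxA and HoxB clusters were listed too, not all of them in the same libraries as the trunk genes. Hoxaas2, which overlaps Hoxa3 in RefSeq, gave the most values, 13 between 7.66 and 10.14. They included 7.66 in WT cells with BMS753 at day 2 and 8.47 in raraKO cells with BMS961, where no trunk gene was listed. Hoxb3os was listed once (3.91), also in WT cells with BMS753 at day 2. Mira gave 8 values between 6.37 and 7.50, of which 7 were in the day 10 libraries with ATRA or BMS753 and 1 in WT cells with ATRA at day 4. Hoxb5os, which overlaps Hoxb5 and Hoxb6 in RefSeq, gave 9 values between 7.19 and 9.77, the earliest with ATRA at day 2. Hoxaas3, which overlaps Hoxa3, Hoxa5 and Hoxa6, gave 3 values between 7.04 and 9.19, all with ATRA. Mira and Hoxb5os were listed in none of the other 9 day 10 libraries.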

How the data were processed

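Poly-T captured RNA of P19 cells was sequenced as paired ends by the authors, who mapped the reads with Bowtie2 2.1.0 to mm9, assigned them with featureCounts and ran DESeq2 (versions of both not given in the sources used here). The deposited values are the authors' log2 fold changes and their unadjusted p-values for 23 libraries, each against the WT ethanol library of day 2. One table also holds a score, the authors' SE, on the log2 scale. All deposited p-values are under 0.01, and the tables hold 57 to 546 genes. Counts are not in these tables, so no count test was run, and depth is unknown.

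The SE implied by a log2 fold change and its p (two-sided normal test) matched the deposited SE of 144 genes to a relative difference of 4.27e-08 or less. The 10 members were matched by exact symbol. The share of genes up-regulated is over the 1753 genes listed in at least 1 table, since the number the authors tested is not given. Each condition has 1 library, and no test between conditions was run. Differences between tables were also centred on the median of genes up-regulated in both. Members, lists, markers and motifs were chosen with earlier results of these data known. All members are named. Other Hox genes and genes of the fixed lists are named with values where listed beside a member, and the 3 most alike genes by Jaccard index were computed per member. Alternatives were thresholds of 1 and 3, a p limit of 0.001, older symbols, removal of genes up-regulated in ethanol at day 10, other denominators, other anterior groups, genes not listed at 0, and a Spearman correlation. The code that makes the calls was tested on simulated tables with known changes. Calculations ran in Python 3.11.15 (scipy 1.17.1, numpy 2.4.6, pandas 2.3.3), and plots in matplotlib 3.10.9. Some items are not reported here.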

Additional observations from a re-analysis of the deposited data

How the results depend on the processing

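The threshold on the log2 fold change did not matter. With thresholds of 1 and 3 every count of trunk genes was the same as at 2, since all values exceed 4. Older symbols and other case changed no count. A p limit of 0.001 left 30 of the 66 trunk values and 25 of the 58 anterior values. The share of all listed genes left at this limit is not given, so the drop is not read as particular to Hox genes. Under it, the trunk genes up-regulated in WT cells were 0 with ATRA at day 2, 3 at day 4 and 3 at day 10, 0 with BMS753 at day 4 and 3 at day 10, and 0 with ethanol at day 10. They were 0 in raraKO cells with the combination, 4 with ATRA and 3 with BMS753 in rarbKO cells, 4 with ATRA and 3 with BMS753 in rargKO cells, and 1 in rargKO cells with BMS641. The counts in raraKO cells with ATRA and in rargKO cells with the combination stayed within 1.5 times. Leaving out genes up-regulated in ethanol at day 10 removes Hoxd10, which left 0 in the ethanol library, 1 in raraKO cells with the combination, 1 in rargKO cells with BMS641 and 0 in rargKO cells with the combination. Centring kept every median difference within 1 SE, and turned that of rarbKO against WT cells with ATRA from 0.08 to -0.33 and that of rargKO against WT cells with BMS753 from -0.50 to -0.05. It also moved ATRA minus BMS753 at day 10 from 0.33 to 0.12 in WT, from -0.58 to -1.02 in rarbKO and from 0.48 to 0.02 in rargKO cells, raraKO and rargKO against WT cells with ATRA from -0.41 to -0.17 and from 0.42 to 0.72, and day 10 minus day 4 with ATRA from -0.41 to -0.15. With genes of the same table as the denominator, the share of genes up-regulated was 37.1% to 76.7%. Each condition has 1 library, and no analysis that pairs the ligands by line was run. The unknown depth and the single ethanol reference limit all values.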

Other observations

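Within HoxA and HoxB the listed genes were not contiguous. Hoxa4, Hoxa5 and Hoxa6 were not listed in any of the 23 comparisons, though Hoxa3 and Hoxa7 on either side were listed in 11 each. Hoxb5 and Hoxb6 were likewise not listed, between Hoxb4 (10 comparisons) and Hoxb7 (8 comparisons), while Hoxb5os was listed in 9. The share of exonic bases that a Hox gene has in common with another gene of the mm9 annotation was 0% for Hoxa4, Hoxa5, Hoxa6 and Hoxb6 and 3.56% for Hoxb5. The listed genes beside the gaps had 28.0% (Hoxa3), 20.4% (Hoxa7), 2.65% (Hoxb4) and 26.2% (Hoxb7). Elsewhere, Hoxd4 (67.4%), Hoxa11 (38.6%) and Hoxd3 (35.8%) were not listed either, and Hoxc6, Hoxc8, Hoxb9 and Hoxc9 were listed with 0%. HoxC had no such gap from Hoxc4 to Hoxc9. In RefSeq, unlike the mm9 annotation used for these shares, Hoxaas3 overlaps Hoxa5 and Hoxa6, and Hoxb5os overlaps Hoxb5 and Hoxb6. Which annotation was used for counting is not given.

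Hoxc13 was down-regulated in 8 comparisons, between -7.38 in WT cells with ethanol at day 10 and -4.77 in WT cells with BMS961. Hoxb13 was down-regulated in 5, between -7.83 and -4.89, all of them in mutant lines without ATRA or BMS753. Both belong to the posterior end of the clusters, and their direction was opposite to that of all 66 trunk values.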
